A study of Ovis aries with 12 samples.

Results

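Collagens are the main structural proteins of connective tissue, and each is built from 3 polypeptide chains wound into a triple helix. The genes described here are the 43 genes of Tan sheep (Ovis aries) whose symbol is that of a collagen chain (COL, a type number, A and a chain number), out of 21257 genes measured. They were chosen by symbol and not by any measured value. By textbook class they comprise 11 fibrillar chains, 6 chains of type IV collagen of basement membranes, 5 chains of type VI collagen and 21 chains of other types.

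The study asked how succinate in the feed acts on the rumen of Tan sheep. RNA was sequenced from sheep of 5 months kept on 4 diets, which were a basal diet (the control) and the same basal diet with 0.5%, 1% or 2% succinate. There were 12 libraries, 3 per diet, from a trial of 36 sheep with 9 per diet. The labels name no tissue (the series title speaks of rumen epithelial cells) and leave unsaid whether the 3 libraries of a diet are 3 animals. The p-values therefore measure only the spread between these libraries, which may be technical.

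As background, type I, III and V chains co-assemble into the striated fibrils that carry tension in the rumen wall, type VI forms beaded filaments around cells, and type IV forms the sheet under epithelia and around smooth muscle, vessels and nerves. The 6 type IV genes form 3 neighbouring pairs that are read away from each other. The pair COL4A1 and COL4A2 makes the network found in nearly all basement membranes, whereas the chains of COL4A3 to COL4A6 form networks restricted to certain tissues. Newly made chains are hydroxylated on proline and lysine by enzymes that use 2-oxoglutarate and release succinate, then folded, exported, trimmed, cross-linked and eventually degraded.

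The libraries held 15489883 to 18717309 reads assigned to genes, and collagen chains took 0.569% to 1.52% of them. The defining markers of stratified epithelium, the cell layer that lines the rumen, were absent: KRT5, KRT4, TP63, IVL and DSG3 had 0 reads in all 12 libraries, none of the 8 listed epithelial genes present in the file passed the filter on low values, and the list summed to at most 0.260 FPKM (reads scaled to gene length and to the library total) in any library. Markers of smooth muscle summed to 36029 to 40671 FPKM in controls, 48682 to 63483 at 0.5% succinate, 36928 to 49625 at 1% and 35988 to 44603 at 2%. Markers of fibroblasts, the main collagen-making cells, summed to 1044 to 2323 FPKM in controls, 925 to 1561 at 0.5%, 948 to 1522 at 1% and 1047 to 1899 at 2%. The smooth muscle sums at 0.5% lay above all control sums and the fibroblast sums overlapped at every dose, and 0 genes of either list passed the adjusted threshold in limma. Endothelial markers summed to 84.2 to 175 FPKM in controls, 74.3 to 173 at 0.5%, 95.9 to 133 at 1% and 95.1 to 186 at 2%, overlapping throughout. Macrophage markers summed to 138 to 225 FPKM in controls, 57.9 to 138 at 0.5%, 111 to 124 at 1% and 104 to 118 at 2%, so that the sums at 1% and 2% lay below all controls. No gene of these lists, nor of those for glia, adipocytes and mesothelium, passed the adjusted threshold either. The part of any of these cell types in the collagen values was not tested. In bulk tissue, fewer cells of a type and less RNA per cell cannot be told apart.

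Some libraries stood apart for collagens as a family. Replicates 2 and 3 of the 1% diet held relatively more reads of long genes: Spearman's correlation across genes between gene length and the deviation of a gene from its own mean was 0.577 and 0.433 in them, against -0.633 to 0.282 in the other 10 libraries. The lowest, -0.633, was that of replicate 2 of the 0.5% diet, which held relatively fewer reads of long genes. Collagen genes are long, with a median length of 6189 bases among the 27 that passed the filter against 3135 among all 12095 genes that did, and 26 of the 27 were longer than the median of all. Replicate 1 of the control was the lowest library for 10 of the 27 genes and replicate 2 of the 0.5% diet for 9. Replicate 3 of the 1% diet was the highest for 11 and replicate 2 of that diet for 5. Replicate 1 of the 0.5% diet was the highest for 4 genes and the lowest for 5 others. Values without these libraries are given beside the results that moved most when they were left out.

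**Figure D1:**
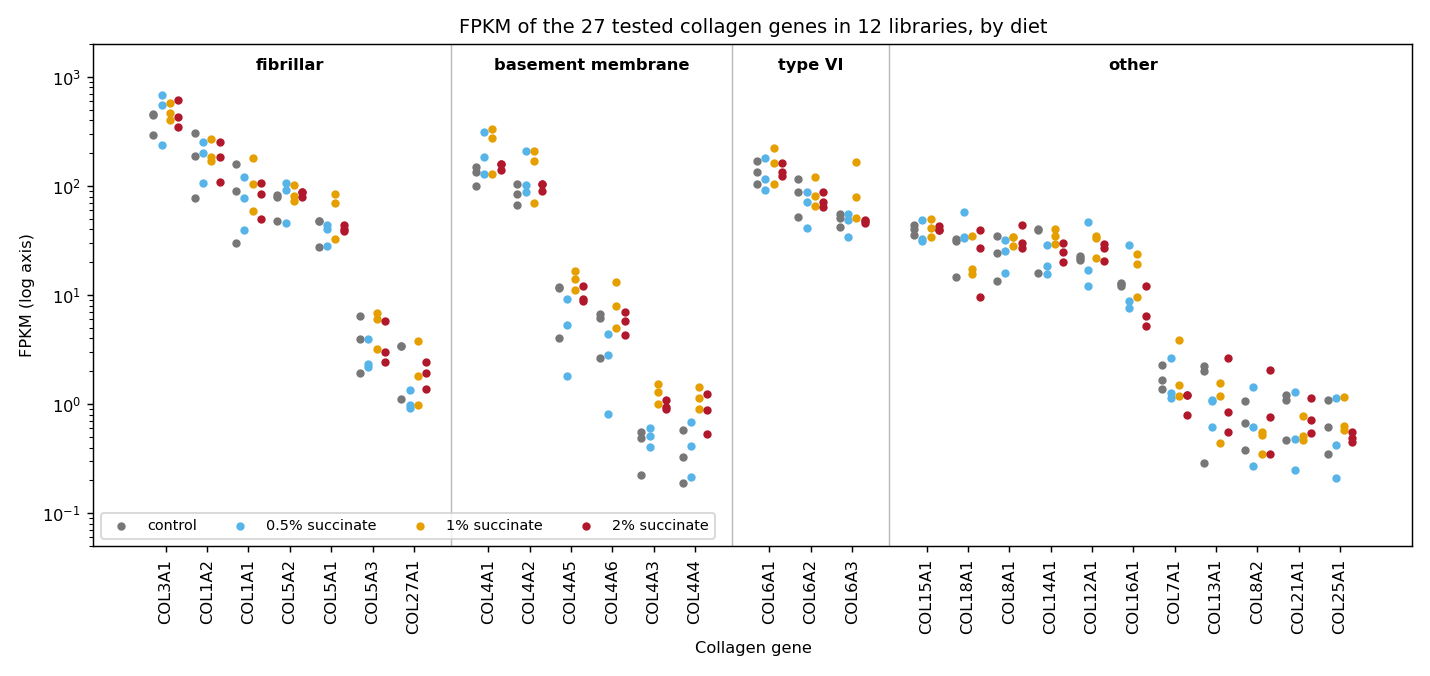
FPKM (log axis) of the 27 collagen genes that passed the filter on low values, 1 point per library, coloured by diet and grouped by class. COL3A1 was the most abundant member, and the 3 type IV pairs lay on 3 separate levels.

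The family covered a wide span of levels. Averaged over the 12 libraries, 5 of the 43 members were above 100 FPKM, 11 lay at 10 to 100, 6 at 1 to 10 and 21 under 1, and 10 members had 0 reads in at least 1 library. By level per length, 1 member was among the top 1% of genes and 9 among the top 5%. Fibrillar chains made up 52.9% ± 5.18 of the summed collagen FPKM, type IV chains 19.1% ± 4.42, type VI chains 17.3% ± 3.07 and the others 10.7% ± 1.52 (SD, n = 12). The filter, at least 1 FPKM in at least 3 libraries, kept 7 of 11 fibrillar, 6 of 6 type IV, 3 of 5 type VI and 11 of 21 other members. Over the 12 libraries the collagen genes kept had a median coefficient of variation of 45.1%, against 23.1% over all genes kept, with COL15A1 the least variable at 14.9% and COL8A2 the most at 69.9%.

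The summed collagen level overlapped between all diets. It was 966, 1803 and 1613 FPKM in controls, 1914, 1030 and 1980 at 0.5%, 1342, 1894 and 2521 at 1%, and 1898, 1321 and 1446 at 2%. The highest sum was that of replicate 3 of the 1% diet and the lowest that of replicate 1 of the control. Means were 1461 ± 439 FPKM in controls, 1641 ± 531 at 0.5%, 1919 ± 590 at 1% and 1555 ± 304 at 2% (SD, n = 3 each).

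Among the fibrillar chains, COL3A1, the single chain of type III collagen found in distensible organs, had 292, 448 and 455 FPKM in controls, 554, 238 and 678 at 0.5%, 405, 469 and 578 at 1%, and 620, 346 and 430 at 2%. It was the most abundant collagen in each library, at rank 134 among all genes by its mean of 459 ± 132 FPKM, and no diet was separated from the control. COL1A2, the alpha-2 chain of type I collagen, had 77.0, 305 and 189 FPKM in controls, 198, 106 and 252 at 0.5%, 169, 184 and 267 at 1%, and 253, 108 and 184 at 2%. COL1A1, its alpha-1 chain, had 30.2, 158 and 89.96 FPKM in controls, 77.5, 39.7 and 120 at 0.5%, 59.1, 104 and 181 at 1%, and 107, 50.2 and 83.8 at 2%. Both type I chains were lowest in replicate 1 of the control, and the 3 controls alone spanned most of the range of the whole study.

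The order COL3A1, COL1A2, COL1A1 held in all 12 libraries. Per length, COL1A2 exceeded COL1A1 by 2.23 ± 0.399 times (SD, n = 12), with a range of 1.48 to 2.87, although the type I protein holds more alpha-1 than alpha-2 chains. COL3A1 exceeded COL1A1 by 2.84 to 9.65 times, and both extremes came from control libraries. The type V chains, which sit inside the fibrils and set their diameter, averaged 80.3 ± 18.2 FPKM for COL5A2 and 45.4 ± 16.5 for COL5A1, while COL5A3 averaged 4.01 ± 1.81. COL5A1 lay highest in replicates 2 and 3 of the 1% diet, at 69.2 and 84.4 FPKM.

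The fibrillar chains of cartilage were near 0. COL2A1 had 0 reads in 7 libraries and at most 0.145 FPKM, COL11A1 did not exceed 0.322 FPKM and COL11A2 did not exceed 0.694. COL24A1 reached 1.153 FPKM in replicate 3 of the 1% diet and 0.635 or less elsewhere. COL27A1, a fibrillar chain described mainly in cartilage, had 1.11, 3.39 and 3.40 FPKM in controls, 0.916, 1.34 and 0.989 at 0.5%, 0.982, 3.79 and 1.83 at 1%, and 1.91, 1.37 and 2.41 at 2%. Its 0.5% libraries were all low, but replicate 1 of the control lay among them.

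The type IV chains of basement membranes all passed the filter on low values, COL4A3 and COL4A4 only through succinate libraries. COL4A1, the major alpha-1 chain, had 99.8, 133 and 148 FPKM in controls, 312, 129 and 185 at 0.5%, 129, 276 and 334 at 1%, and 160, 160 and 140 at 2%. COL4A2, the alpha-2 chain that assembles with it, had 66.5, 85.0 and 103 FPKM in controls, 209, 88.8 and 101 at 0.5%, 69.9, 169 and 209 at 1%, and 103, 104 and 89.7 at 2%. For both chains 3 libraries stood above all others, namely replicate 1 of the 0.5% diet and replicates 2 and 3 of the 1% diet. Among the remaining replicates of those diets, replicate 3 of the 0.5% diet lay above all controls for COL4A1 but inside their range for COL4A2, and the other 2 lay inside the range of the controls for both chains.

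COL4A5 and COL4A6, the alpha-5 and alpha-6 chains that accompany smooth muscle and some epithelia, lay far lower. COL4A5 had 4.07, 11.5 and 11.8 FPKM in controls, 1.80, 5.34 and 9.30 at 0.5%, 11.2, 13.9 and 16.6 at 1%, and 12.1, 9.26 and 8.78 at 2%. COL4A6 had 2.65, 6.67 and 6.21 FPKM in controls, 0.817, 2.82 and 4.35 at 0.5%, 5.02, 8.01 and 13.2 at 1%, and 6.98, 5.74 and 4.29 at 2%. Replicate 1 of the 0.5% diet, among the highest for COL4A1 and COL4A2, was the lowest of all 12 for both of these genes. Its ratio of COL4A1 to COL4A5 was 173, while the other 11 libraries ran from 11.5 to 24.5. In that library the fibroblast markers summed to 925 FPKM, the lowest of the 12, and the smooth muscle markers to 63483 FPKM, the highest of the 12. The part of either in the ratio was not tested.

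COL4A3 and COL4A4, the alpha-3 and alpha-4 chains best known from the kidney filter, were scarce, with 29 to 186 and 20 to 144 reads per library. COL4A3 had 0.223, 0.493 and 0.550 FPKM in controls, 0.516, 0.401 and 0.611 at 0.5%, 1.01, 1.52 and 1.29 at 1%, and 1.09, 0.933 and 0.906 at 2%. COL4A4 had 0.189, 0.326 and 0.577 FPKM in controls, 0.412, 0.213 and 0.680 at 0.5%, 0.895, 1.44 and 1.13 at 1%, and 1.25, 0.538 and 0.892 at 2%. The 1% libraries lay above every control library for both genes, and so did the 2% libraries for COL4A3, whereas replicate 2 of the 2% diet lay below the highest control for COL4A4. Both genes reached 1 FPKM in succinate libraries only and so passed the filter through the groups in which they were high. Their place among the genes tested is therefore no support for a difference.

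In the positions given in the file, whose genome build is not given in the sources used here, each pair is arranged head to head. COL4A1 lies on chromosome 10 from 84241030 to 84369833 on the minus strand and COL4A2 from 84369961 to 84527930 on the plus strand, 127 bases apart. COL4A5 lies on chromosome X from 126470341 to 126732394 on the minus strand and COL4A6 from 126732495 to 127081023 on the plus strand, 100 bases apart. COL4A4 lies on chromosome 2 from 229253435 to 229401597 on the minus strand and COL4A3 from 229401447 to 229560622 on the plus strand, and their first 151 bases overlap. Since the strand setting of the counting is not given here, reads from that overlap could have gone to either gene.

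**Figure D2:**
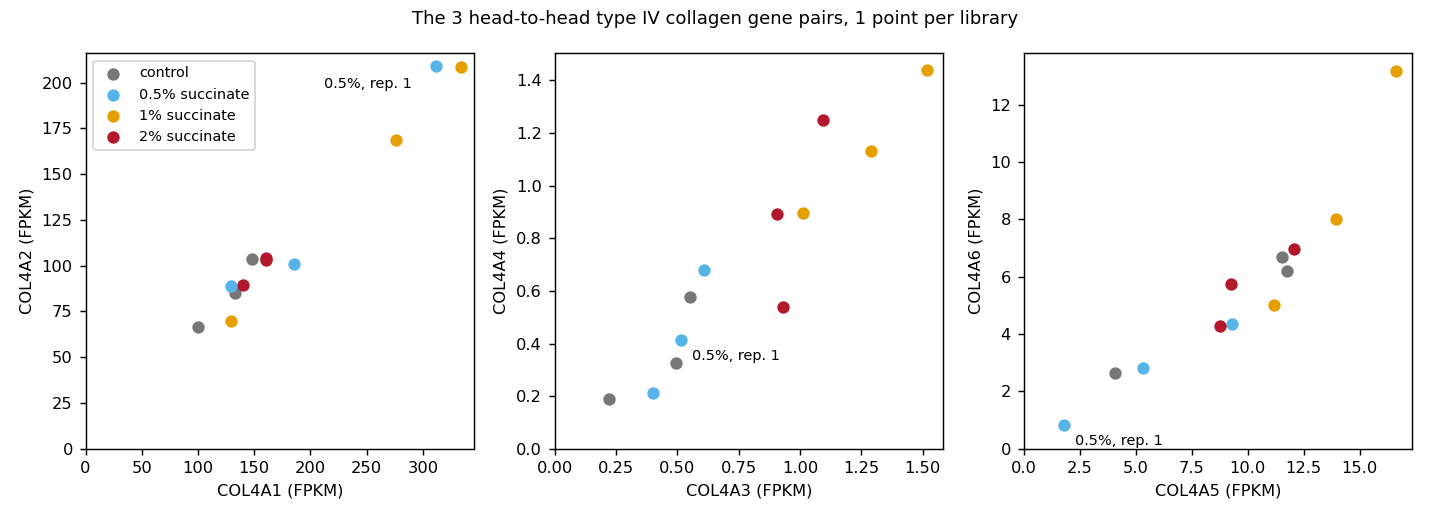
FPKM of the 2 genes of each head-to-head type IV pair (linear axes), 1 point per library, coloured by diet. Within each pair the libraries follow a line, and replicate 1 of the 0.5% diet lies near the top for COL4A1 and COL4A2 (312 and 209 FPKM) but lowest for COL4A5 and COL4A6 (1.80 and 0.817 FPKM).

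The genes of a pair moved together from library to library. On the log2(FPKM + 1) scale across the 12 libraries, Pearson's r was 0.978 and Spearman's rho 0.909 for COL4A1 with COL4A2 (permutation p = 1e-05 and 0.00015). For COL4A3 with COL4A4 they were 0.938 and 0.951 (permutation p = 2e-05 and 3e-05), and for COL4A5 with COL4A6 0.966 and 0.972 (permutation p = 1e-05 for both). The value 1e-05 is the smallest that the 100000 two-sided permutations can give. Libraries were permuted across the diets, so differences between diets that both genes share enter r, rho and their p-values. Without the 2 libraries farthest from the median of the first gene, r was 0.948, 0.895 and 0.935. The ratios were 1.58 ± 0.132 for COL4A1 over COL4A2, 1.22 ± 0.326 for COL4A3 over COL4A4 and 1.83 ± 0.290 for COL4A5 over COL4A6 (SD, n = 12). The first was the narrowest, at 1.43 to 1.85, while COL4A3 over COL4A4 ran from 0.876 to 1.88.

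Of 11 chain pairs compared in this way, 9 had a Benjamini-Hochberg adjusted permutation p for Pearson's r under 0.05. Pairs of other genes were not compared, so the count does not show that such correlation is particular to collagen chains. The type I chains COL1A1 and COL1A2 gave r = 0.954 and rho = 0.937 (adjusted permutation p = 3.67e-05 and 5.5e-05), and r = 0.897 without the 2 farthest libraries. COL6A1 and COL6A2 gave r = 0.896 and rho = 0.937 (adjusted permutation p = 0.000132 and 7.33e-05), and r = 0.805 without the 2 farthest. COL3A1 followed COL5A2, its neighbour on chromosome 2, with r = 0.876 and rho = 0.755 (adjusted permutation p = 0.000532 and 0.00987), and COL1A1 with r = 0.810 and rho = 0.804 (adjusted permutation p = 0.00218 and 0.00438). Without the 2 farthest libraries, r was 0.644 with COL5A2 and 0.620 with COL1A1. COL3A1 and COL5A2 lie 16742 bases apart, and COL6A1 and COL6A2 lie 115165 bases apart on the same strand of chromosome 1.

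The remaining pairs were looser. COL6A1 with COL6A3 gave r = 0.697 and rho = 0.643 (adjusted permutation p = 0.00795 and 0.0377), which rested on the 1% diet: without its replicates 2 and 3, r was 0.418 and rho 0.515 (adjusted permutation p = 0.262 and 0.166). COL5A1 with COL5A2 gave r = 0.597 and rho = 0.378 (adjusted permutation p = 0.0461 and 0.228), and r = 0.795 without those 2 libraries. It rested on single libraries, with r = 0.470 without replicate 1 of the control (adjusted permutation p = 0.193) and r = 0.488 with libraries scaled by the trimmed mean of M-values, TMM (adjusted permutation p = 0.115). In the set of 10 libraries without replicates 2 and 3 of the 1% diet, leaving out the 2 farthest gave r = -0.0039. COL1A1 with COL4A1, a fibrillar and a basement membrane chain, gave r = 0.571 and rho = 0.615 (adjusted permutation p = 0.0576 and 0.0459), and the type VIII chains COL8A1 with COL8A2 gave r = 0.367 and rho = 0.392 (adjusted permutation p = 0.235 and 0.228). The points of all 11 pairs share the same libraries, their depth and their length trends. Without replicate 1 of the 0.5% diet as well as replicates 2 and 3 of the 1% diet, r was 0.862 for COL4A1 with COL4A2, 0.895 for COL4A3 with COL4A4 and 0.939 for COL4A5 with COL4A6 (exact permutation p = 0.000664, 0.00152 and 0.000672, n = 9). That removal was chosen after the data were seen.

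Type VI collagen, which is made from 3 core chains, was led by COL6A1, its alpha-1 chain, with 104, 168 and 134 FPKM in controls, 91.4, 115 and 182 at 0.5%, 105, 163 and 222 at 1%, and 163, 133 and 122 at 2%. COL6A2, the alpha-2 chain, had 51.8, 115 and 87.3 FPKM in controls, 40.9, 71.7 and 88.5 at 0.5%, 65.6, 80.2 and 122 at 1%, and 88.0, 64.0 and 71.0 at 2%. COL6A3, the large alpha-3 chain, had 41.8, 51.0 and 55.4 FPKM in controls, 48.7, 34.1 and 54.9 at 0.5%, 50.6, 78.6 and 165 at 1%, and 48.4, 45.7 and 47.7 at 2%. Replicate 3 of the 1% diet was the highest library for each of the 3 chains, and for COL6A3 it stood far above the rest. All diets overlapped the controls for all 3. COL6A5 and COL6A6, which can take the place of COL6A3, did not exceed 0.150 and 0.206 FPKM.

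Among the other types, COL15A1 and COL18A1 encode chains of basement membrane zones that carry sugar side chains. COL15A1 had 35.2, 40.2 and 44.1 FPKM in controls, 48.8, 31.4 and 32.7 at 0.5%, 34.4, 50.3 and 41.4 at 1%, and 42.9, 39.5 and 39.5 at 2%. COL18A1, from which endostatin is cut, had 14.6, 32.5 and 31.4 FPKM in controls, 57.2, 33.5 and 33.8 at 0.5%, 17.5, 15.7 and 34.4 at 1%, and 39.2, 27.05 and 9.55 at 2%. COL15A1 hardly varied, and COL18A1 was above every control in the 3 libraries of the 0.5% diet, though its replicates 2 and 3 lay only just above the highest control. COL8A1, a short-chain collagen of vessel walls, had 13.4, 24.2 and 35.1 FPKM in controls, 31.9, 15.8 and 25.2 at 0.5%, 28.2, 34.1 and 34.4 at 1%, and 43.5, 26.9 and 29.95 at 2%. All its succinate groups overlapped the controls, in which replicate 1 was the lowest of the 12.

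Collagens that decorate the surface of fibrils were of middling level, with means of 28.2 ± 9.35 FPKM for COL14A1 and 25.7 ± 9.29 for COL12A1 (SD, n = 12). COL16A1, another member of that group, had 12.8, 12.7 and 11.98 FPKM in controls, 28.7, 7.56 and 8.91 at 0.5%, 9.54, 23.8 and 19.3 at 1%, and 12.1, 5.26 and 6.44 at 2%. Its controls were close together, and its highest values were in the same 3 libraries as those of COL4A1. COL7A1, the chain of the fibrils that anchor stratified epithelium to its base, had 1.38, 2.28 and 1.65 FPKM in controls, 2.62, 1.26 and 1.13 at 0.5%, 1.18, 1.501 and 3.88 at 1%, and 1.21, 1.22 and 0.798 at 2%. All 3 of its 2% libraries lay below the controls. COL17A1, the collagen of epithelial hemidesmosomes, did not exceed 0.189 FPKM and had 0 reads in 2 libraries.

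The scarce remainder included COL8A2, the partner of COL8A1, with 0.383, 1.06 and 0.673 FPKM in controls, 1.45, 0.272 and 0.618 at 0.5%, 0.347, 0.560 and 0.519 at 1%, and 0.759, 0.347 and 2.04 at 2%. COL21A1, a fibril-associated chain, had 0.468, 1.22 and 1.10 FPKM in controls, 0.481, 0.251 and 1.30 at 0.5%, 0.466, 0.782 and 0.516 at 1%, and 1.14, 0.547 and 0.715 at 2%. Neither gene had a diet apart from the controls. The membrane-bound COL13A1 and COL25A1 averaged 1.21 ± 0.750 and 0.643 ± 0.318 FPKM (SD, n = 12). Of the 10 members of this class that did not pass the filter, COL28A1 reached the highest value, 2.28 FPKM in replicate 1 of the 2% diet, and COL23A1 was next with 2.06 FPKM in replicate 3 of the 1% diet. COL23A1 had 0.944, 0.951 and 2.06 FPKM at 1% and 0.150, 0.391 and 0.785 FPKM in controls, without overlap, but with 1 library at 1 FPKM it was not tested. Of all genes tested, 7.14% lay above all controls at 1%, and COL23A1 had as few as 7 reads in a library. COL9A1 had 0 reads in 8 libraries, COL26A1 in 8 and COL10A1 in 9, and a count of 0 allows up to 3 reads, or 0.160 to 0.194 CPM (counts scaled by depth alone), for counting error only. COL9A3 and COL10A1 overlap genes on the opposite strand, TCFL5 and NT5DC1, so their few reads are uncertain.

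**Figure D3:**
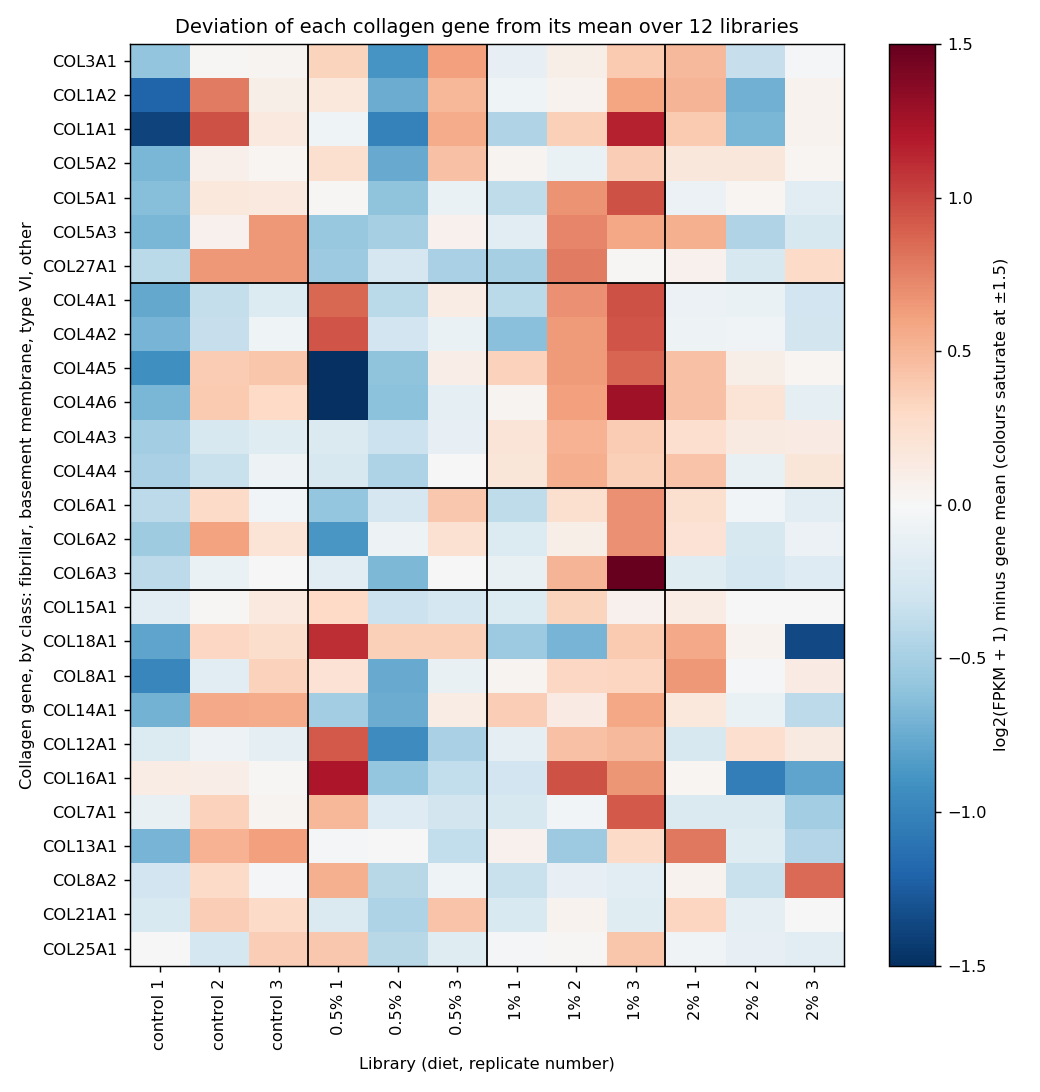
Deviation of log2(FPKM + 1) of each tested collagen gene (rows, by class) from its own mean over the 12 libraries (columns, by diet), in log2 units with colours saturating at ±1.5. Most genes are low in replicate 1 of the control (median deviation -0.59) and replicate 2 of the 0.5% diet (-0.46) and high in replicate 3 of the 1% diet (0.57), across the classes.

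Each succinate diet was compared with the control by limma on log2(FPKM + 1), in 1 fit of all 12 libraries and all 12095 genes, with Benjamini-Hochberg adjustment over all of them and a threshold of 0.05. Of the 27 tested collagen genes, 0 passed at 0.5%, at 1% or at 2%, and 0 passed for a linear slope on succinate percent or for any difference among the 4 diets. The share of all genes that passed was likewise 0% in each of these 5 tests. Limma-voom on the reads recovered from the FPKM values also called 0 collagen genes in each. The 3 comparisons share the control libraries and are not independent of each other. What follows gives the direction and size of the differences, none of which passed the adjusted threshold with all libraries in.

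At 1% succinate, 22 of the 27 collagen genes had a positive log2 difference from the control, where 45.4% of all genes tested did. The median was 0.30 over the collagen genes and -0.04 over all genes tested. By class the medians were 0.67 for type IV with 6 of 6 positive, 0.30 for fibrillar with 6 of 7, 0.23 for type VI with 3 of 3, and 0.10 for the others with 7 of 11. The type IV genes include COL4A3 and COL4A4, which passed the filter only through succinate libraries. An unadjusted p under 0.05 was reached by 4 collagen genes, all higher at 1%, against 19.4% of all genes in either direction and 7.33% higher.

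These 4 genes were COL4A3, COL4A4, COL6A3 and COL4A1. COL4A3 averaged 1.27 ± 0.253 FPKM at 1% and 0.422 ± 0.175 in controls (SD, n = 3 each). Its log2 difference of FPKM + 1 was 0.68 (SE 0.18), with a limma adjusted p of 0.198 and an unadjusted value of 0.00228. COL4A4 averaged 1.16 ± 0.273 FPKM at 1% and 0.364 ± 0.197 in controls (SD, n = 3 each), a log2 difference of 0.66 (SE 0.21). Its unadjusted limma p was 0.00885 and its adjusted p 0.198. Because 1 is added to values near 1, these differences understate the ratio of the FPKM means, which was 3.02 for COL4A3 and 3.18 for COL4A4. COL4A3 and COL4A4 were the only tested collagen genes whose 1% and control libraries did not overlap, a separation shown by 17.8% of all genes tested and, in the higher direction, by 7.14%. Both passed the filter only through succinate libraries, so their p-values and this separation are no support for a difference.

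COL4A1 averaged 246 ± 105 FPKM at 1% and 127 ± 24.8 in controls, and COL6A3 98.1 ± 59.7 at 1% and 49.4 ± 6.94 in controls (SD, n = 3 each). The log2 differences were 0.86 for COL4A1 (SE 0.35, limma adjusted p = 0.223) and 0.81 for COL6A3 (SE 0.33, limma adjusted p = 0.217). The 3 lower genes with the smallest p at 1% were COL21A1 at -0.26, COL27A1 at -0.20 and COL8A2 at -0.19, and the limma adjusted p of each was at least 0.568. The type IV sum was 217, 470 and 575 FPKM in the 1% libraries and 173, 237 and 271 FPKM in the control libraries, so replicate 1 of the 1% diet lay inside the range of the controls.

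The 1% values turned on which libraries were used. Without replicate 1 of that diet, limma called 6 collagen genes, all higher, where 21.8% of all genes tested were called and 9.17% were called higher. They were COL4A1 with a log2 difference of 1.27 (adjusted p = 0.0155), COL6A3 with 1.20 (0.0145), COL4A2 with 1.16 (0.0264), COL5A1 with 0.92 (0.0259), COL4A3 with 0.76 (0.0194) and COL4A4 with 0.75 (0.0455). COL4A3 and COL4A4 passed the filter only through succinate libraries, so their calls and values here are no support for a difference. COL6A3 was then also called for any difference among the diets (limma adjusted p = 0.0351), as 11.1% of all genes were. Without replicates 2 and 3 instead, 11 of 27 collagen genes were above 0, where 42.8% of all genes tested were. The median was -0.08, against -0.05 over all genes tested, and the class medians were 0.21 for type IV, -0.18 for fibrillar and -0.29 for type VI. COL4A3 and COL4A4 then stood at 0.51 and 0.48, and COL6A3 at 0.04. Without replicate 3 alone, COL6A3 stood at 0.36 and the medians of type VI and of the other chains at -0.02 and -0.04. Without replicate 1 of the control, the collagen median at 1% was 0.06 and the fibrillar median 0.02, while the type IV median was 0.55. With the length trend of each library removed, 19 of 27 were above 0 with a median of 0.19, where 50.1% of all genes tested were above 0, and COL6A3 stood at 0.48. The part of the length trend in the 1% values was not tested beyond this.

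**Figure D4:**
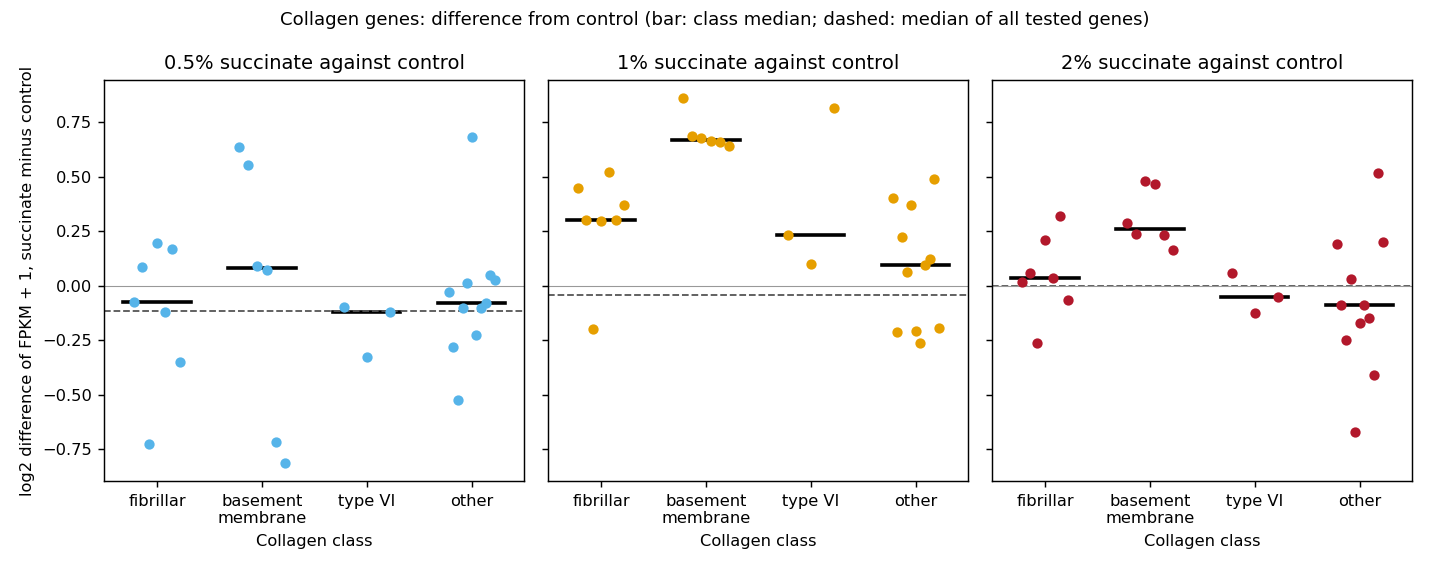
Difference of log2(FPKM + 1) between each succinate diet and the control for the 27 tested collagen genes (points), by class, with the class median as a bar and the median of all 12095 genes as a dashed line. At 1% the 6 type IV genes lie between 0.64 and 0.86, and at 0.5% they are spread from -0.81 to 0.64.

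At 0.5% succinate the collagen genes showed no shared direction. Of the 27, 11 had a positive log2 difference, where 29.4% of all genes did, and the median was -0.08 against -0.11 over all genes tested. Relative to that shift of all genes the split changed: with TMM scaling, which brought the median of all genes to 0.00, 18 of 27 were positive. With the length trend of each library removed, 18 of 27 were positive as well, with a median of 0.06, where 47.4% of all genes tested were positive. An unadjusted p under 0.05 was reached by 1 collagen gene, COL27A1, against 4.65% of all genes in either direction and 3.7% lower. With TMM scaling or with the length trend removed, the 1 gene was instead COL4A1, which was higher. With quantile scaling or limma-voom, 0 collagen genes reached it. COL27A1 averaged 1.08 ± 0.229 FPKM at 0.5% and 2.63 ± 1.32 in controls (SD, n = 3 each), a log2 difference of -0.73 (SE 0.33, limma adjusted p = 0.883). COL18A1, at 41.5 ± 13.6 FPKM against 26.2 ± 10.02 in controls (SD, n = 3 each), was the only tested collagen without overlap, as were 12.1% of all genes in either direction and 1.76% higher. Its log2 difference was 0.68 (SE 0.49, limma adjusted p = 0.883). Without replicate 1 of the control it was 0.32, and the fibrillar and collagen medians were -0.46 and -0.23.

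The type IV pairs lay on opposite sides of 0 at this dose. COL4A1 had a log2 difference of 0.64 (SE 0.35) and COL4A2 of 0.56 (SE 0.38), whereas COL4A5 was at -0.72 (SE 0.44) and COL4A6 at -0.81 (SE 0.42), each with a limma adjusted p of 0.883. All 4 groups overlapped the controls. The size of these differences turned on replicate 1, since without it COL4A1 stood at 0.30, COL4A2 at 0.18, COL4A5 at -0.21 and COL4A6 at -0.38. Without replicate 1 of the control, COL4A5 and COL4A6 both stood at -1.16. COL4A3 and COL4A4 were at 0.09 and 0.07. The smooth muscle markers, of which 12 of 14 tested were above 0 at 0.5% with a median of 0.41, moved with this comparison, and their part in it was not tested.

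At 2% succinate the collagen genes as a family lay at the level of the controls. Of the 27, 16 had a positive log2 difference, where 49.3% of all genes did, with medians of 0.04 and 0.00. With the length trend removed 13 were positive, where 48.8% of all genes tested were. The type IV chains were again 6 of 6 above 0 with a median of 0.26, which was 0.10 without replicate 1 of the control and 0.43 without its replicate 3, while the medians were 0.04 for fibrillar, -0.05 for type VI and -0.09 for other chains. An unadjusted p under 0.05 was reached by COL4A3 and COL4A4, both higher, against 3.17% of all genes in either direction and 1.57% higher. COL4A3 averaged 0.978 ± 0.101 FPKM at 2% and 0.422 ± 0.175 in controls, and COL4A4 0.893 ± 0.355 at 2% and 0.364 ± 0.197 in controls (SD, n = 3 each). The log2 differences were 0.48 (SE 0.18) and 0.47 (SE 0.21), with a limma adjusted p of 0.999 for both. Both genes passed the filter only through succinate libraries, so neither their p-values nor their part in the 6 of 6 is support for a difference.

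COL4A3, higher, and COL7A1, lower, were the only tested collagen genes whose 2% libraries did not overlap the controls, as was the case for 14.2% of all genes, 7.43% higher and 6.75% lower. COL7A1 averaged 1.08 ± 0.241 FPKM at 2% and 1.77 ± 0.465 in controls (SD, n = 3 each), a log2 difference of -0.41 (SE 0.30, limma adjusted p = 0.999). COL8A1 stood at 0.52 (SE 0.32), COL16A1 at -0.67 (SE 0.45) and COL27A1 at -0.26 (SE 0.33), all with overlapping libraries and a limma adjusted p of 0.999. Without replicate 1 of the control, COL8A1 stood at 0.16 and COL27A1 at -0.62, and without its replicate 3 they stood at 0.83 and -0.08. No library of the 2% diet was the highest of the 12 for more than 2 collagen genes, or the lowest for more than 2.

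Over the doses as a line, COL4A3 and COL4A4 had slopes of 0.27 (SE 0.10) and 0.27 (SE 0.12) log2 units per percent succinate. They were the only tested collagen genes with an unadjusted p under 0.05 for the slope (limma, 0.0208 and 0.0395), against 3.21% of all genes in either direction and 1.86% with a positive slope, and the adjusted p was 0.9998 for both. Since both passed the filter only through succinate libraries, these slopes are no support for a difference. The means of both genes were higher at 1% than at 2%, but the libraries of these diets overlapped and the doses were not tested against each other. For any difference among the 4 diets, COL4A3, COL4A4, COL4A6 and COL6A3 had an unadjusted p under 0.05, against 12.6% of all genes, and the limma adjusted p was 0.396 for each. The same limit of the filter holds for COL4A3 and COL4A4 in this test, so their p-values in it are no support for a difference.

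Genes that make, modify, degrade or sense collagen were counted from a list of 58, of which 56 were in the file and 46 passed the filter. By limma 0 of them passed the adjusted threshold at any dose, for the slope or for any difference among the diets. Unadjusted p-values under 0.05 fell to 2 higher and 2 lower genes at 0.5%, 6 higher and 1 lower at 1%, and 0 at 2%. Over all genes tested the shares in either direction were 4.65%, 19.4% and 3.17%, so the 7 of 46 at 1% are a smaller share than that of all genes. Their direction differed, since of all genes 887 (7.33%) were higher at 1% and 1459 lower. At 0.5%, 114 of all genes were higher and 448 lower. The medians were 0.02 at 0.5%, 0.18 at 1% and 0.09 at 2%, with 25, 31 and 31 of 46 genes above 0. The medians of all genes were -0.11, -0.04 and 0.00, and 29.4%, 45.4% and 49.3% of them were above 0. At 1% the 6 tested collagen receptors were all above 0 with a median of 0.46 and the 8 tested genes of the prolyl hydroxylase group had a median of 0.02.

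The prolyl and lysyl hydroxylases, which use 2-oxoglutarate and release succinate, are served by several further proteins. P4HB, the beta subunit of prolyl 4-hydroxylase and its most abundant listed gene, averaged 99.6 ± 12.6 FPKM in controls, 105 ± 3.66 at 0.5%, 102 ± 5.28 at 1% and 97.4 ± 10.01 at 2% (SD, n = 3 each), and its means differed by less than the spread of the controls. PLOD2, a lysyl hydroxylase, had 26.6, 26.96 and 28.3 FPKM in controls, 40.4, 15.3 and 31.1 at 0.5%, 28.0, 25.8 and 14.5 at 1%, and 32.7, 28.5 and 37.6 at 2%. The 2% libraries lay just above the controls for PLOD2, as did those of 7.43% of all genes tested, with a log2 difference of 0.25 (SE 0.31, limma adjusted p = 0.999). PLOD1, another lysyl hydroxylase, averaged 18.8 FPKM in controls, 28.9 at 0.5%, 32.2 at 1% and 17.7 at 2%. Its log2 differences were 0.62 at 0.5% and 0.75 at 1% (limma adjusted p = 0.883 and 0.206), with overlapping libraries. Its unadjusted limma p was under 0.05 at both doses, against 4.65% and 19.4% of all genes in either direction. Of the 5 tested genes of its role, 2 were below 0 at 0.5% and 1 at 1%. PPIB, a prolyl isomerase that acts with the prolyl 3-hydroxylase complex, had 15.1, 10.03 and 12.5 FPKM at 1% and 15.2, 14.4 and 16.0 at 2%, against 21.6, 20.6 and 19.2 in controls. The libraries of both doses lay below all controls, with log2 differences of -0.68 at 1% (SE 0.20, limma adjusted p = 0.198) and -0.40 at 2% (SE 0.20, limma adjusted p = 0.999). Groups did not overlap in either direction for 17.8% of all genes tested at 1% and 14.2% at 2%. PPIB is short, at 908 bases, and was lowest in replicates 2 and 3 of the 1% diet, which held relatively more reads of long genes. The part of the length trend in its values was not tested.

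SERPINH1, the collagen chaperone HSP47, averaged 115 ± 22.7 FPKM in controls, 118 ± 18.2 at 0.5%, 97.5 ± 15.2 at 1% and 124 ± 19.3 at 2% (SD, n = 3 each). PCOLCE2, an enhancer of propeptide cleavage, had 52.1, 124 and 116 FPKM in controls, 12.9, 78.2 and 60.2 at 0.5%, 51.0, 52.4 and 58.4 at 1%, and 99.8, 65.4 and 66.0 at 2%. Replicate 1 of the control was low for PCOLCE2, and every diet overlapped the controls. TLL2, a propeptide protease, averaged 1.79 ± 0.481 FPKM at 2% and 0.945 ± 1.16 in controls (SD, n = 3 each), a log2 difference of 0.66 with overlapping libraries (SE 0.38, limma adjusted p = 0.999).

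Cross-linking enzymes differed in direction at 0.5%. LOXL4, a lysyl oxidase of the LOX family, had 8.44, 5.09 and 4.29 FPKM at 0.5% and 4.01, 6.29 and 5.96 at 1%, against 2.66, 3.73 and 2.99 in controls. Both doses lay above all controls, as did the 2% libraries by a smaller margin, with log2 differences of 0.71 at 0.5% (SE 0.23, limma adjusted p = 0.883) and 0.63 at 1% (SE 0.23, limma adjusted p = 0.206). The share of all genes tested that lay above all controls was 1.76% at 0.5%, 7.14% at 1% and 7.43% at 2%. LOX itself had 11.6, 10.8 and 22.9 FPKM at 0.5%, against 18.4, 25.7 and 26.1 in controls, a log2 difference of -0.67 with overlapping libraries (SE 0.30, limma adjusted p = 0.883). TIMP3, a matrix-bound inhibitor of collagen-degrading proteases, averaged 285 ± 23.7 FPKM in controls, 213 ± 64.4 at 0.5%, 367 ± 59.1 at 1% and 285 ± 31.6 at 2% (SD, n = 3 each), and its 1% libraries lay above all controls (limma adjusted p = 0.371).

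Among the receptors, ITGA1, the alpha-1 integrin that binds type IV collagen, had 35.7, 43.9 and 37.2 FPKM at 1%, against 20.5, 22.5 and 26.2 in controls. All 3 libraries lay above the controls, replicate 1 included, with a log2 difference of 0.73 (SE 0.25, limma adjusted p = 0.199). At 1%, 7.14% of all genes tested lay above all controls. DDR2, a receptor kinase for fibrillar collagen, had 11.8, 11.9 and 21.5 FPKM at 0.5% and 28.3, 35.5 and 33.1 at 1%, against 19.1, 19.7 and 25.2 in controls. Its log2 difference was -0.52 at 0.5% (SE 0.22, limma adjusted p = 0.883) and 0.58 at 1% (SE 0.22, limma adjusted p = 0.206), and the 1% libraries all lay above the controls. ITGB1, the beta-1 integrin that pairs with ITGA1, averaged 277 FPKM in controls, 302 at 0.5%, 307 at 1% and 337 at 2%, and overlapped the controls at each dose. The lengths of ITGA1 and DDR2 in the file are 11134 and 11075 bases, longer than all but 1 of the collagen genes tested, and the length trend of replicates 2 and 3 of the 1% diet moves with their 1% values; its part in them was not tested.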

How the data were processed

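Messenger RNA of 12 libraries was measured by sequencing. Per the labels' protocols, Trizol was used for extraction and a NEBNext Ultra II kit for the libraries. The submitters' processing notes name cutadapt 1.15, HISAT2 2.1.0 and HTSeq 0.9.1. The genome build, annotation and strand setting are not given in the sources used here. The authors deposited FPKM per gene and library with gene lengths and positions, per the file headers. FPKM times length was whole, within 0.01 of a read, for 100% of values, which gave the reads and depth of each library. Gene IDs of all 43 members matched RefSeq (ARS-UI_Ramb_v3.0), which was used for names only.

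Values were transformed as log2(FPKM + 1). limma 3.58.1 (R 4.3.3), with intensity trend and robust moderation, fitted the 4 diets over 12095 genes, those that reached 1 FPKM in 3 or more libraries. It tested each dose against the control, the slope and any diet difference (two-sided, Benjamini-Hochberg adjustment over all genes, threshold 0.05). No exact test is given between diets, because the smallest p it can reach with 3 libraries each is 0.1. The scripts were tested on simulated data. Chain pairs were correlated with 100000 permutations (scipy 1.17.1, exact for 9 libraries).

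Alternatives were a pseudocount of 0.1, no filter, TMM and quantile scaling, removal of the length trend, limma-voom on recovered reads, fits of the 2 diets compared, the replicate number as a block, and the removal of libraries. Fits without a library kept the same genes. The members, lists and tests were chosen with earlier results of these data known. The genes given in every library are the 3 most abundant members of each class, any past the threshold, and the 3 higher and 3 lower with the smallest p at each dose. Pathway genes named are the most abundant of each role and the 2 with the smallest p at each dose, given by library or by diet mean. Besides these, COL5A1, COL23A1, COL24A1, PLOD1 and others given in part were chosen after their values were seen.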

Additional observations from a re-analysis of the deposited data

How the results depend on the processing

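With every library in, 0 collagen genes passed the adjusted threshold at any dose, for the slope or for any diet difference under each alternative run. Leaving out 1 library at a time gave 0 to 6 called genes at 1% succinate, with 6 only without replicate 1 of that diet, and 0 to 1 for any diet difference. The 6 include COL4A3 and COL4A4, which passed the filter only through succinate libraries. At 0.5%, at 2% and for the slope, leaving out 1 library gave 0 called genes. The collagen median ran from -0.23 to 0.08 at 0.5%, 0.06 to 0.51 at 1% and -0.18 to 0.22 at 2% over these removals, and at 1% it was 0.53 with quantile scaling. COL27A1 at 1% changed sign, with -0.55 to 0.10 over the removals and 0.10 without replicate 1 of the 1% diet. Deviations of same-numbered libraries of different diets correlated at -0.334 to 0.258 (median -0.02, 18 pairs), and those of other pairs at -0.267 to 0.258 (median 0.05, 36 pairs). Of the 12 libraries, 6 correlated best with one of their own number. These values show no clear pairing by number but cannot exclude it, and the labels leave it unsaid. With the replicate block, 0 collagen genes were called in each test, and 2, 4 and 1 had an unadjusted p under 0.05 at 0.5%, 1% and 2%, against 1, 4 and 2 without it. Over the removals of 1 library, genes with an unadjusted p under 0.05 numbered 0 to 4 at 0.5%, 2 to 6 at 1%, 0 to 3 at 2%, 0 to 3 for the slope and 1 to 7 for any diet difference, and without replicate 1 of the control the fibrillar median at 2% was -0.41. Of the chain pairs, 7 to 10 passed over the removals, 8 with TMM and 9 with the lower pseudocount. Depth limits the scarce members most: the 16 untested genes reached at most 2.28 FPKM in any library, and with no filter on low values 5 collagen genes had an unadjusted p under 0.05 at 1%, against 4 with it.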

Other observations

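Besides the 43 members, 24 rows of the file are described as collagen alpha chains but carry no collagen symbol, and 2 of them passed the filter on low values. LOC101112800, described as a collagen alpha-1(XX) chain, had 6.14, 6.10 and 5.15 FPKM in controls, 5.84, 6.89 and 5.03 at 0.5% succinate, 4.99, 4.69 and 7.68 at 1%, and 5.26, 5.78 and 5.65 at 2%. LOC121818524, described as similar to the type I alpha-1 chain, had 5.09, 4.43 and 2.73 FPKM in controls, 4.396, 3.40 and 4.996 at 0.5%, 2.59, 0.686 and 1.74 at 1%, and 3.62, 1.48 and 1.86 at 2%. The second gene lay below all controls in the 1% libraries, among which replicate 2 was the lowest of the 12, whereas COL1A1 overlapped the controls at that dose. Groups did not overlap in either direction for 17.8% of all genes tested at 1%. LOC121818524 is short, at 2163 bases against 5912 for COL1A1, and replicates 2 and 3 of the 1% diet held relatively more reads of long genes. The part of the length trend in its values was not tested. No test of LOC121818524 is given, since it was picked after its values were seen.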
